A study of Mus musculus with 12 samples.

Results

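The mitochondrial respiratory chain was followed through 45 nuclear genes that encode subunits of complexes I, II, III and IV. The genes were chosen by name from the standard subunit families: 30 belong to complex I (Ndufs, Ndufv, Ndufa, Ndufb and Ndufc genes), 3 to complex II (Sdh genes), 5 to complex III (Uqcr genes) and 7 to complex IV (6 Cox genes and Ndufa4). They are 45 of the 32301 genes and transcripts on the array, and the rule that names them uses no measured value. All 45 had a probe and were well above background on 12 of 12 arrays, so every member was tested in every comparison. Ndufa4 was named as a complex I gene but was counted with complex IV, where structures place its protein.

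RNA came from bone marrow-derived macrophages (BMDMs) of WT and KpCKO mice, all C57BL/6 and 8 weeks old. KpCKO mice carry Keap1 flox/flox::LysM-Cre: the Cre is driven from the lysozyme M locus, so Keap1 is deleted in myeloid cells, and loss of KEAP1, the protein that holds the transcription factor NRF2 down, leaves NRF2 active. Bone marrow cells of both genotypes were grown with M-CSF for 7 days and then left unstimulated (Con), given LPS and IFNγ for 6 h (M1) or given IL-4 for 6 h (M2). Each of the 6 groups held 2 arrays, 1 from each of 2 independent cultures. The mice of culture 1 were male and those of culture 2 female, with 1 animal of each genotype in either, so culture, animal and sex cannot be told apart.

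The respiratory chain passes electrons from NADH, at complex I, and from succinate, at complex II, through ubiquinone to complex III, then through cytochrome c to complex IV, which reduces oxygen. Complexes I, III and IV pump protons, and the ATP synthase uses the resulting gradient. Complex I has a set of core subunits that hold the flavin, the iron-sulfur clusters and the proton channels, surrounded by accessory subunits that assemble and stabilise it; complex IV has a mitochondrially encoded catalytic core wrapped by small nuclear-encoded subunits, which are the genes of that complex measured here. In macrophages, LPS with IFNγ is known to turn metabolism from respiration towards glycolysis, whereas IL-4 is known to keep or raise respiration.

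Values below are levels on a log2 scale, each array's processed signal set relative to that array's own 75th percentile, so a level of 0 equals that percentile and a difference of 1 is a doubling. Every test compared levels of 1 gene between arrays and never with those of another gene. Only the marker sums, the bins of brightness and the words bright and dim set levels of different genes side by side. The 75th-percentile signal was 966 to 1166 on the Con and M2 arrays, 757 and 548 on the WT M1 arrays and 906 and 787 on the KpCKO M1 arrays, and 59.5% to 71.6% of probes were well above background. The arrays of a stimulus, 4 in number, shared a slide, so stimulus and slide cannot be told apart, while both genotypes of a stimulus lay on the same slide. Keap1 was lower in KpCKO by 1.46 to 1.81 on the log2 scale in the 3 conditions and Nqo1, an NRF2 target, was 3.23 higher in unstimulated cells. Il6 rose by 13.17 under M1 and Retnla by 13.74 under M2 in WT. The 5 macrophage markers were above background in every group, with a summed signal of 450 to 496 in WT Con and 341 to 393 in KpCKO Con, and B-cell, T-cell, erythroid and dendritic-cell markers summed to under 1 percentile unit. Neutrophil markers (6 of 8 past the filter) summed to 3.15 to 16.5 units and stromal markers (4 of 4) to 4.94 to 14.3. In bulk RNA, fewer cells of a type and less RNA per cell cannot be told apart. Tests were limma fits with culture as a block, with Benjamini-Hochberg adjustment over all genes tested. With 2 arrays a group an exact permutation test cannot go below p = 0.333, and none is given.

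The respiratory chain genes split under M1 in WT macrophages: 11 of 45 rose and 11 fell, and all of the falls were in complex I while 6 of the rises were in complex IV. In complex IV, all 6 Cox genes rose and Ndufa4 (0.21) did not pass, with a median difference of 0.58 over the 7, but these 6 lay below their Con level when arrays were quantile normalized, as given below. In complex I, 11 of 30 fell and 4 rose, with a median of -0.083. The 11 that fell were also below Con under each of the other scalings, but 44 of 45 members were so once arrays were quantile normalized. Complex III had 1 riser among 5 genes and complex II no call among 3. Of all genes tested, 63.2% passed the test in this comparison (34.5% higher, 28.6% lower), and the 22 of 45 members called lay below that share. The median difference of the members was 0.16, beside 0.13 over all genes. The limits of the 45 values were -0.75 (Ndufb5) and 1.82 (Ndufs4).

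**Figure D1:**
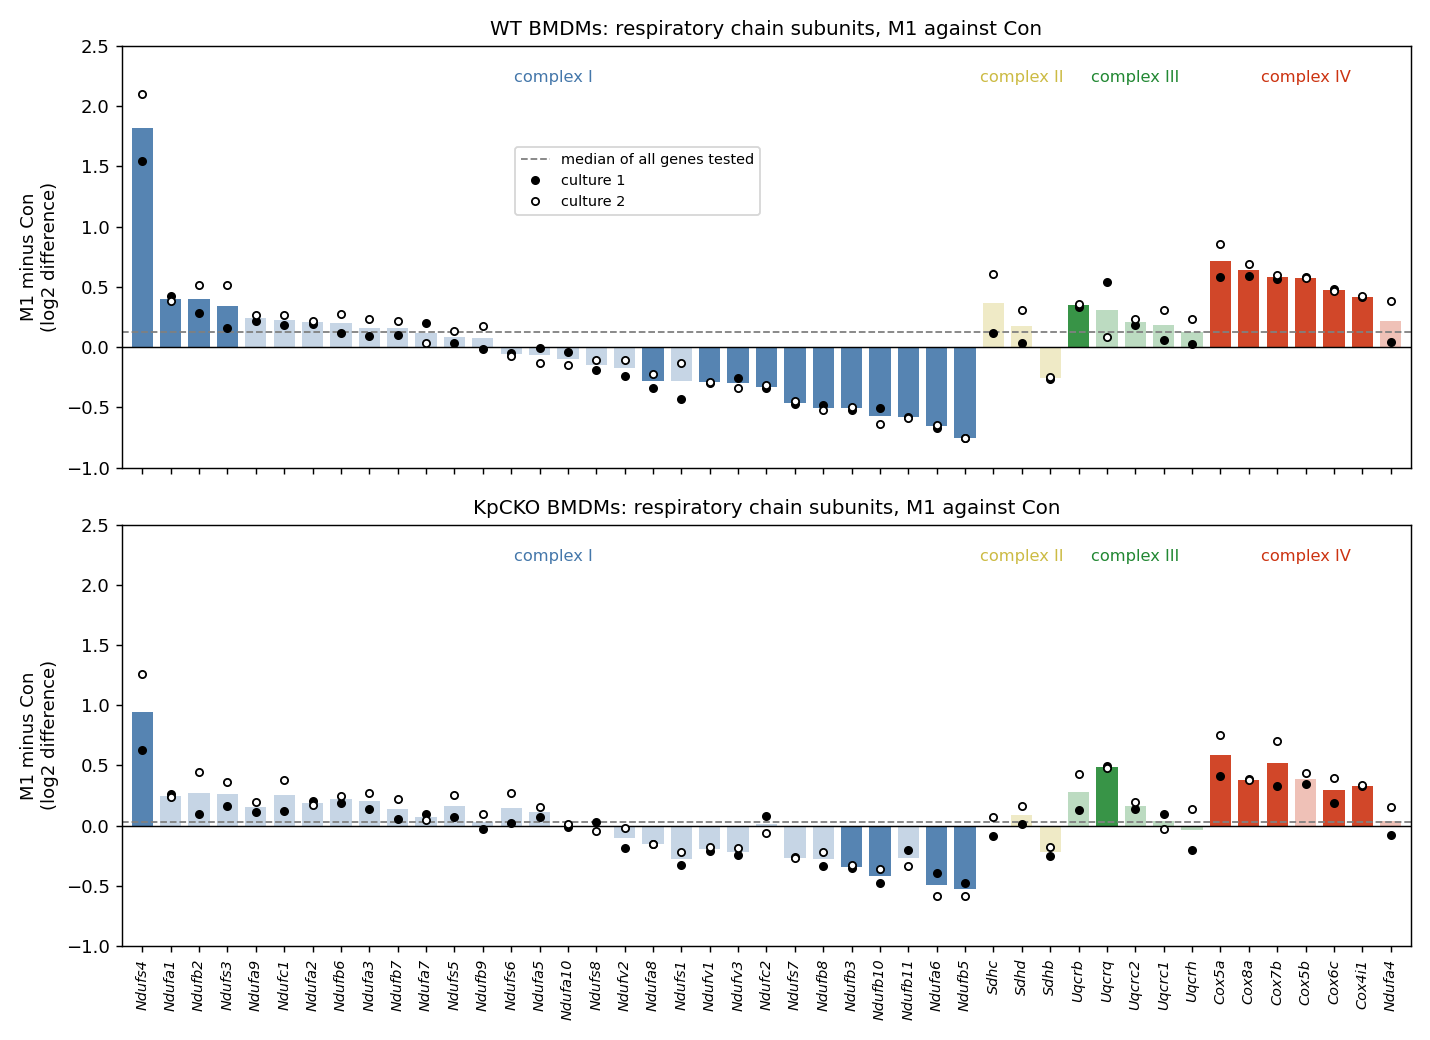
Difference of M1 from Con in log2 units for each of the 45 subunit genes, grouped by complex, in WT (top) and KpCKO (bottom). Bars are the mean of both cultures, dark where the adjusted p passed 0.05, with a filled dot for culture 1 and an open dot for culture 2, and the dashed line is the median of all genes. On this 75th-percentile scale 6 of 7 complex IV genes rose in WT (0 of 7 after quantile normalization), and 11 of 30 complex I genes fell.

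Ndufs4 moved most. It encodes an accessory subunit of the NADH-oxidising arm of complex I that is needed to assemble that arm stably. Its level was 3.12 and 3.06 on the WT Con arrays and 4.66 and 5.16 on the WT M1 arrays. In KpCKO it was 3.16 and 3.01 in Con and 3.79 and 4.27 in M1. Both M1 arrays lay above both Con arrays in each genotype, and both WT M1 arrays lay above both KpCKO M1 arrays. In WT the difference was 1.82 (SE 0.188, n = 2 arrays a group, limma adjusted p = 0.000189), a 3.54-fold rise. It kept its direction under every scaling, from 1.25 to 2.04 over all alternatives, and was the only one of the 11 risers to do so.

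The other genes of complex I that rose were Ndufa1 (0.40, adjusted p = 0.0112), Ndufb2 (0.40, adjusted p = 0.0194) and Ndufs3 (0.34, adjusted p = 0.0364) in the limma fit, an accessory subunit of the hydrophobic part, one of the membrane arm and a core subunit of the matrix arm. All 3 turned below 0 with quantile normalization.

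Among the genes that fell, the Ndufb subunits of the membrane arm were frequent: 5 of 9 fell and 1 rose, with a median of -0.50. Ndufb5 was at 1.75 and 1.67 in WT Con and at 0.99 and 0.91 in WT M1. Ndufb11, an X-linked subunit of the same arm, was at 5.75 and 5.72 in Con and at 5.18 and 5.13 in M1. Ndufb10 stood at 5.49 and 5.51 in Con against 4.98 and 4.87 in M1. For each of these genes both M1 arrays were below both Con arrays. The differences were -0.75 for Ndufb5 (SE 0.116, limma adjusted p = 0.0012), -0.58 for Ndufb11 (SE 0.0972, adjusted p = 0.00174) and -0.57 for Ndufb10 (SE 0.118, adjusted p = 0.00461). Ndufb3 (-0.51) and Ndufb8 (-0.50) fell by similar amounts.

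Ndufa6, an accessory subunit at the foot of the matrix arm, was at 3.03 and 3.35 in WT Con and at 2.36 and 2.70 in WT M1. Its fall of 0.66 on the log2 scale (SE 0.108, limma adjusted p = 0.00161) was near equal in both cultures even though culture 2 was higher throughout. Of the 6 core subunits measured, Ndufs7, which holds the last iron-sulfur cluster before ubiquinone, fell by 0.46 and Ndufv1, which binds NADH and the flavin, fell by 0.29, while Ndufs3 rose as given above. Ndufs7 was at 4.22 and 4.31 in Con and at 3.74 and 3.86 in M1. The remaining falls were in Ndufc2 (-0.33), Ndufv3 (-0.30) and Ndufa8 (-0.28). For Ndufv3, 2 dimmer probes gave larger falls, of -0.70 and -0.64.

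In complex IV the members that rose most were Cox5a and Cox8a. Cox5a, a subunit on the matrix side, was at 6.11 and 5.86 in WT Con and at 6.69 and 6.72 in WT M1. Cox8a, the smallest subunit, was at 5.75 and 5.81 in Con and at 6.35 and 6.50 in M1. Cox7b, an X-linked subunit of the membrane part, was at 3.85 and 3.77 in Con and at 4.41 and 4.37 in M1. The groups did not overlap for any of the 3 genes. On this scale the differences were 0.72 for Cox5a (SE 0.12, limma adjusted p = 0.00175), 0.64 for Cox8a (SE 0.0894, adjusted p = 0.000747) and 0.58 for Cox7b (SE 0.132, adjusted p = 0.00726). With quantile normalization they were -0.19, -0.24 and -0.024, and with normexp background correction and quantile normalization they were -0.64, -0.57 and -0.088. Without the second WT Con array the Cox7b call was lost (adjusted p = 0.0618).

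Cox5b, a zinc-binding subunit on the matrix side, was at 5.58 and 5.40 in WT Con and at 6.16 and 5.97 in WT M1, a difference of 0.58 (SE 0.169, limma adjusted p = 0.0207) that turned to -0.24 with quantile normalization. Its call was lost without the second WT Con array (adjusted p = 0.149) or the first WT M1 array (adjusted p = 0.12). Cox6c (0.47, adjusted p = 0.00393) and Cox4i1 (0.42, adjusted p = 0.00786), the usual isoform of the subunit that senses ATP and ADP, also rose on the percentile scale and not after quantile normalization.

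**Figure D2:**
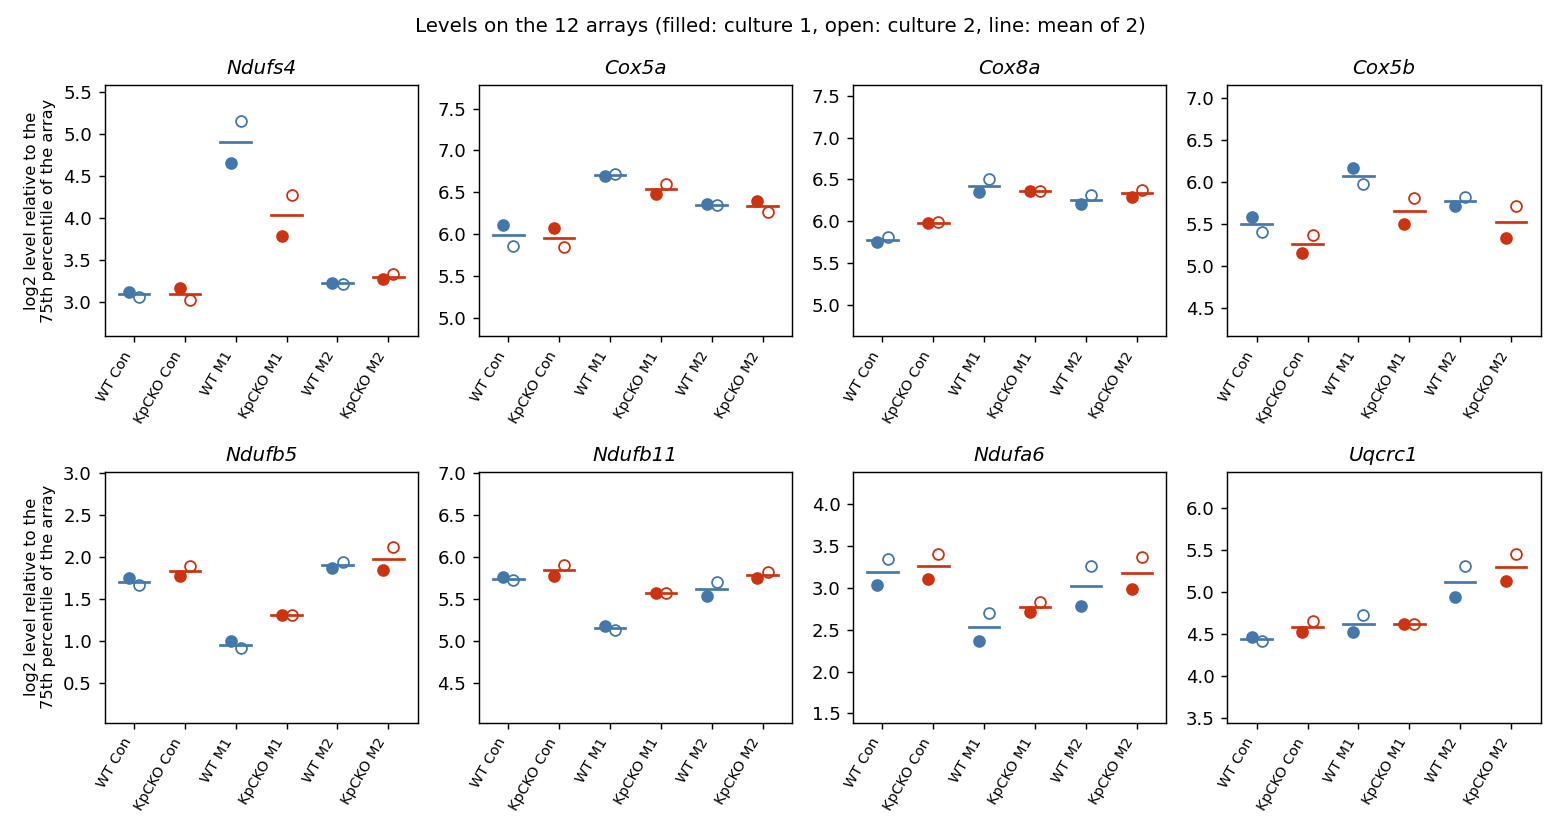
Level in log2 units relative to each array's 75th percentile for Ndufs4, Cox5a, Cox8a, Cox5b, Ndufb5, Ndufb11, Ndufa6 and Uqcrc1 on the 12 arrays, WT in blue and KpCKO in red. Ndufs4 stood at 4.66 and 5.16 in WT M1 against 3.79 and 4.27 in KpCKO M1, and Uqcrc1 at 4.94 to 5.45 on the M2 arrays against 4.42 to 4.65 on the Con arrays.

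In complexes II and III, 1 of 8 genes passed under M1 in WT on the percentile scale. With quantile normalization 2 of 3 and 4 of 5 fell, with a median of -0.45 in each, beside -0.078 over all genes. Uqcrb, a small subunit near the ubiquinone site of complex III, was at 3.92 and 3.95 in WT Con and at 4.26 and 4.31 in WT M1, and rose by 0.35 (limma adjusted p = 0.0226). That value also fell below 0 after quantile normalization. In complex II, Sdhb, which carries the iron-sulfur clusters, differed by -0.26 (adjusted p = 0.0718) and Sdhc, a membrane anchor, by 0.36 (adjusted p = 0.0546), and neither passed on the percentile scale.

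The direction of the rises depended on how arrays were scaled. M1 raised the median of all genes by 0.13 in WT on the percentile scale, but not evenly over levels. The median of all genes was 0.27 between levels -5 and -4, fell to -0.21 between -1 and 0, and was -0.030 between 1 and 2, where the lowest members lay, and 0.37 between 5 and 6. The members are bright, with 18 of 45 between levels 4 and 5. Against the median of all genes of like brightness, 11 members lay above and 34 below in WT, with a median of -0.18. Complex I was then at -0.28 and complex IV at 0.21, with 6 of 7 complex IV genes still above. With each array centred on its median, 13 members rose and 9 fell. With quantile normalization 1 rose and 36 fell, and with normexp and quantile normalization 1 rose and 40 fell. The members' median was then -0.45 beside -0.078 over all genes, and -0.64 beside -0.046 with normexp. Shares of all genes called are given on the percentile scale only. Counts under other scalings, here and elsewhere, thus have no such share beside them. Of the 11 genes called higher, 10 lay below 0 in both quantile settings, and all 11 called lower lay below 0 in all 4 scalings. Since 44 of 45 members lay below 0 in both quantile settings, those settings are no separate test of the falls. The gap between complexes, the median of complex IV less that of complex I, was 0.66 and kept its sign, at 0.39 with quantile normalization and 0.18 with normexp.

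**Figure D3:**
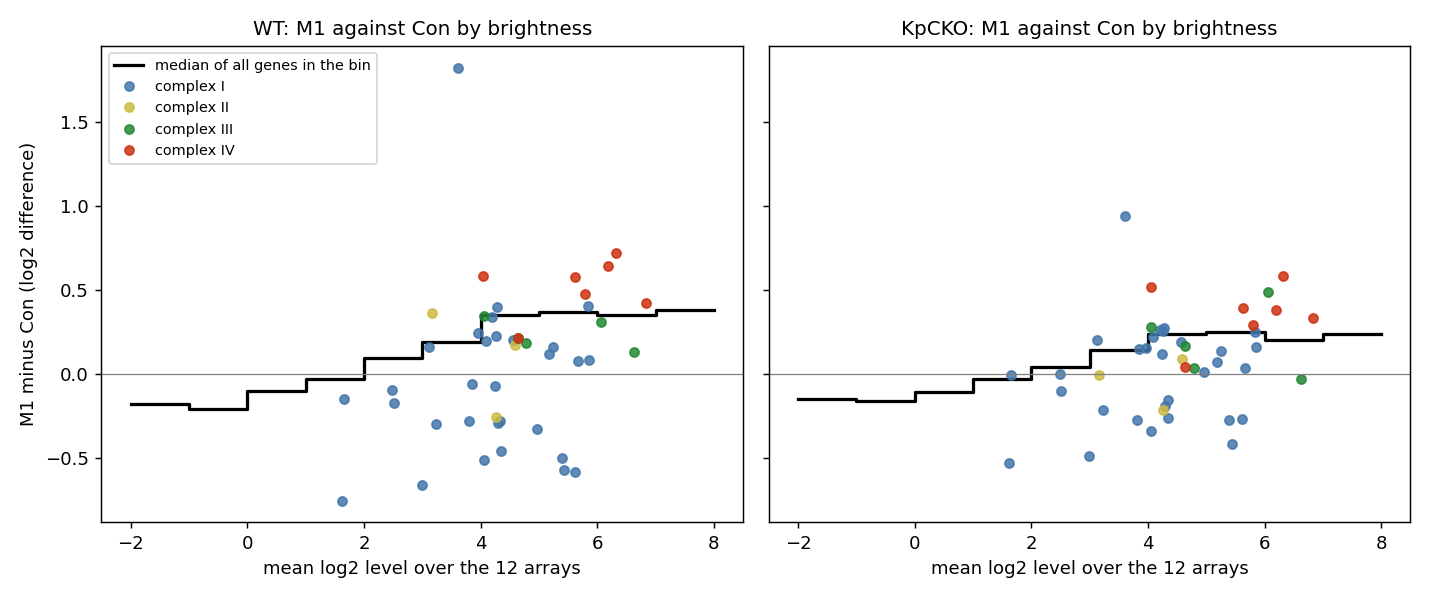
Difference of M1 from Con against mean level, both in log2 units, with members coloured by complex, WT on the left and KpCKO on the right. The step line is the median of all genes in each 1-unit bin of level and, over the levels of the members in WT, goes from -0.030 between 1 and 2 to 0.37 between 5 and 6, after -0.21 between -1 and 0; most complex I genes lie under it and 6 of 7 complex IV genes over it.

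The promoter windows below show the sequences upstream of 4 genes that carry these results: the highest riser, a complex IV riser, the gene that fell most and the complex III gene that rose under M2. They are RefSeq windows of GRCm38.p6, 250 bases before to 50 after the annotated start, written 5′ to 3′ on the gene's strand, and 38 such windows matched 36 of 45 members. Capitals mark matches on either strand to GABP (CCGGAAGT), NRF1 (GCATGCGC), YY1 (ATGGCGGC) or the TGAGNNNGC form of the antioxidant response element.
Ndufs4, chr13:114388045-114388344, minus strand, 1 YY1 match: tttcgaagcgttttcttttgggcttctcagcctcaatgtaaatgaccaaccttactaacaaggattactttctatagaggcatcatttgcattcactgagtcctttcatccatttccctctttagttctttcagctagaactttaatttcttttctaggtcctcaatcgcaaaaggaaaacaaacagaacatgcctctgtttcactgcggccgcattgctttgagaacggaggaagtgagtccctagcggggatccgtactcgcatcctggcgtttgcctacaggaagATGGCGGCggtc
Cox8a, chr19:7217567-7217866, minus strand, 2 GABP matches: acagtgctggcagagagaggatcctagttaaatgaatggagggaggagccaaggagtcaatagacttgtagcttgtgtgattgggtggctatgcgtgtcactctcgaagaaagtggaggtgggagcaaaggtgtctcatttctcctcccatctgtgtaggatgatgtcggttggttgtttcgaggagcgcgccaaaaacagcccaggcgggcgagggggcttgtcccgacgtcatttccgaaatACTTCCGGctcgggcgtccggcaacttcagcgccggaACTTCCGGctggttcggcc
Ndufb5, chr3:32736813-32737112, plus strand, 1 YY1 match and 1 antioxidant response element match: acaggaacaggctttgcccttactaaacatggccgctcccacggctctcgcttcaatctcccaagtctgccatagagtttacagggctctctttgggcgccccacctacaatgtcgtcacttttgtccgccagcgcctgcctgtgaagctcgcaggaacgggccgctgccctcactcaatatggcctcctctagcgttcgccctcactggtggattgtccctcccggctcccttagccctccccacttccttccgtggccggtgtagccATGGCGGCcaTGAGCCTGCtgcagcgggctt
Uqcrc1, chr9:108936398-108936697, plus strand, 2 NRF1 matches that overlap, since the motif lies on both strands of GCGCATGCGC: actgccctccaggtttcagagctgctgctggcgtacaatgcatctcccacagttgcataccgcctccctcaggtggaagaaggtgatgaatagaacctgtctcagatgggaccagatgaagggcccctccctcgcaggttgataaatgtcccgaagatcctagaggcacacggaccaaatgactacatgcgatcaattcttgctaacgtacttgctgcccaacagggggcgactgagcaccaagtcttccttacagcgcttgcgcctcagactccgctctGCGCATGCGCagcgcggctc

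NRF1, GABP and YY1 are known regulators of nuclear genes for respiration. YY1 letters were in 18.4% of the member windows (6 genes, among them Ndufs4, Ndufb5 and Ndufs7) and in 2.24% of the 32851 windows of all genes. NRF1 letters were in 10.5% (4 of 38 windows) against 2.71% and GABP letters in 7.89% (3 windows) against 3.89%. The TGACNNNGC form of the antioxidant response element was in 21.1% (8 windows) against 12.4%, and the TGAGNNNGC form in 13.2% (5 windows) against 17.6%. The letters of an NF-κB motif were in 2.63% (1 window) against 1.63%. Those of the interferon-stimulated response element were in 5.26% (2 windows) against 3.44%. These counts are small, and no difference in share was tested. The windows of Ndufb11, Cox5a and Cox7b held none of the 7 motifs.

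In KpCKO macrophages fewer respiratory chain genes passed the test under M1: 7 rose and 4 fell, where 50.2% of all genes passed (24.8% higher, 25.4% lower). The median of the members was 0.089, beside 0.029 over all genes, and the range was -0.53 to 0.94. Of these calls 10 were also made in WT, 12 were made in WT alone, and Uqcrq alone was called in KpCKO and not in WT, which does not show that the responses differed. Complex IV again supplied most rises, with 5 of 7 and a median of 0.38, and complex I had 1 rise and 4 falls with a median of 0.023. After quantile normalization complex IV had 0 rises and 1 fall, and complex I had 1 rise and 18 falls. Their medians were then -0.19 and -0.38, beside -0.062 over all genes. No share of all genes called is given for that scaling.

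The rises in KpCKO were in Ndufs4 (0.94, SE 0.188, limma adjusted p = 0.00552), Cox5a (0.58, SE 0.12, adjusted p = 0.00608), Cox7b (0.52), Uqcrq (0.48), Cox8a (0.38), Cox4i1 (0.33) and Cox6c (0.29). Cox5a was at 6.07 and 5.84 in Con and at 6.48 and 6.60 in M1. Uqcrq, a small complex III subunit, was at 6.01 and 5.70 in Con and at 6.51 and 6.17 in M1 (SE 0.156, adjusted p = 0.0371). Ndufs4 stayed above 0 in every alternative, from 0.53 to 1.15, while Cox5a was at -0.0037 with quantile normalization. The Cox7b call was lost without the second KpCKO Con array (adjusted p = 0.103) or the second KpCKO M1 array (adjusted p = 0.101).

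The falls in KpCKO were in Ndufb5 (-0.53, SE 0.116, limma adjusted p = 0.00825), Ndufa6 (-0.49, SE 0.108, adjusted p = 0.0084), Ndufb10 (-0.42, SE 0.118, adjusted p = 0.0223) and Ndufb3 (-0.34, adjusted p = 0.0141). Ndufb5 was at 1.78 and 1.90 in Con and at 1.30 and 1.31 in M1. Ndufb11 was at 5.77 and 5.90 in Con and at 5.57 on both M1 arrays, and its difference of -0.27 did not pass (adjusted p = 0.0565). Ndufv3 was not called from its brightest probe (-0.22). Its 2 dimmer probes gave -0.50 and -0.68 (adjusted p = 0.0481 and 0.0117 in a limma fit of single probes). Without the culture block Ndufa6 (adjusted p = 0.135) and Ndufb10 (adjusted p = 0.0519) were not called. Leaving out any 1 of the 4 arrays ended the Ndufb10 call (adjusted p = 0.0675 to 0.105), leaving out the second M1 array ended that of Ndufa6 (0.0555) and leaving out the second Con array that of Ndufb5 (0.0557). The members called fell from 11 to 3 without the second KpCKO Con array and to 5 without the second M1 array.

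IL-4 left most respiratory chain genes without a call, and most values lay above 0, fewer so after quantile normalization. In WT 3 of 45 rose and none fell, where 16.8% of all genes passed (8.62% higher, 8.2% lower). The members ranged from -0.22 (Ndufa1) to 0.69 (Uqcrc1), 35 of 45 lay above 0, and their median was 0.14, beside -0.0083 over all genes. In KpCKO 1 rose and none fell, where 10.2% of all genes passed (5.67% higher, 4.53% lower), with 37 of 45 above 0 and a median of 0.17, beside 0.0083. The lean was smaller in both quantile settings. With quantile normalization 29 members lay above 0 in WT (median 0.061) and 26 in KpCKO (0.10). With normexp these were 28 (0.052) and 27 (0.080). It was not smaller with each array centred on its median, at 37 in WT (0.16) and 39 in KpCKO (0.19).

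Uqcrc1, a core protein of complex III, rose under IL-4 in both genotypes. It was at 4.46 and 4.42 in WT Con and at 4.94 and 5.31 in WT M2. In KpCKO it was at 4.52 and 4.65 in Con and at 5.13 and 5.45 in M2. Every M2 array lay above every Con array. The differences were 0.69 in WT (SE 0.129, limma adjusted p = 0.0152) and 0.71 in KpCKO (SE 0.129, adjusted p = 0.0214), and a second probe of Uqcrc1 gave 0.64 in WT. Without the culture block neither passed (adjusted p = 0.0504 and 0.0658), and leaving out 1 array ended the WT call for 3 of 4 arrays (0.0535 to 0.114) and the KpCKO call for each of 4 (0.0635 to 0.129). Its promoter window above holds the overlapping NRF1 letters. Such letters are also in the windows of Ndufa6, Ndufa8 and Sdhb, none of which was called under IL-4. Ndufa6 was among the 3 lowest members under IL-4 in both genotypes. A link between the letters and the response was not tested.

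The other calls under IL-4 were in WT. Cox8a was at 5.75 and 5.81 in Con and at 6.20 and 6.31 in M2, a difference of 0.47 (SE 0.0894, limma adjusted p = 0.0153), and in KpCKO the difference was 0.35 (adjusted p = 0.0538). Ndufs7 was at 4.22 and 4.31 in Con and at 4.56 and 4.79 in M2, a difference of 0.41 (SE 0.103, adjusted p = 0.0397). The Ndufs7 call was lost in both quantile settings, where no complex I gene was called under IL-4 in WT. Cox8a lost its call when any 1 of the 4 arrays was left out (adjusted p = 0.0768 to 0.106), as did Ndufs7 (0.124 to 0.212), and Ndufs7 also lost it without the block (0.16). The 6 core subunits of complex I lay above 0 in both cultures of both genotypes under IL-4, with medians of 0.33 in WT and 0.30 in KpCKO. Under M1 their median was -0.23 in WT. Ndufs1, the largest iron-sulfur subunit, was among those that did not pass, at 0.39 in WT (adjusted p = 0.0619).

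Between genotypes most respiratory chain genes lay slightly higher in KpCKO, and almost none passed the test. In unstimulated cells no member passed, where 2.21% of all genes did (1.38% higher, 0.826% lower). An unadjusted p under 0.05 was found for 1 member, beside 3155 of 22386 genes. The median was 0.082, beside 0.0016 over all genes, 36 of 45 lay above 0, and the range was -0.23 (Cox5b) to 0.32 (Ndufa4). In M2 cells no member passed, where 1.93% of all genes did (1.28% higher, 0.643% lower). None had an unadjusted p under 0.05, where 3194 of 22381 genes did. Of the members 38 of 45 lay above 0, with a median of 0.080 beside 0.019. These became 31 of 45 and 0.027 with quantile normalization and 28 of 45 and 0.035 with normexp. In M1 cells 1 was higher and 1 lower, where 16% of all genes passed (7.42% higher, 8.58% lower), with 33 of 45 above 0 and a median of 0.079 beside -0.087.

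The 2 members called in M1 cells were Ndufs4 and Ndufb11, with the arrays given above. Ndufs4 was lower in KpCKO by 0.88 on the log2 scale (SE 0.188, limma adjusted p = 0.0273), 1.84-fold, with -0.87 in culture 1 and -0.89 in culture 2. Ndufb11 was at 5.57 on both KpCKO M1 arrays against 5.18 and 5.13 in WT M1, a difference of 0.42 (SE 0.0972, adjusted p = 0.0342), 1.34-fold. Without the culture block neither passed (adjusted p = 0.0507 and 0.0849). Ndufs4 lost its call without the second WT M1 array (0.129) or the first KpCKO M1 array (0.144), and Ndufb11 without the second WT M1 array (0.145) or either KpCKO M1 array (0.151 and 0.075). The next differences by size, in Cox5b (-0.42, adjusted p = 0.134), Ndufa5 (0.37, adjusted p = 0.0709) and Ndufs7 (0.36, adjusted p = 0.0565), did not pass. The scaling also mattered here: with quantile normalization 5 members were higher and 1 lower, and with normexp 12 and 1. The members' median was then 0.23 beside 0.0042 over all genes, and 0.24 beside 0.00092 with normexp. No share of all genes called is given for these scalings.

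Averaged over the 3 conditions, 39 of 45 members lay above 0 in KpCKO, with a median of 0.080 beside -0.018 over all genes, and 39 to 41 did so in the 4 scalings. Only 1 passed, Ndufb11, at 0.23 (SE 0.0561, limma adjusted p = 0.035), where 17.2% of all genes passed (8.61% higher, 8.54% lower). That call was lost without the block (adjusted p = 0.0849), without the filter on dim probes (0.076) and in 11 of 12 fits that left out 1 array (0.0559 to 0.106). Complex I held 28 of the 39, out of 30, with a median of 0.11, and all 9 Ndufb genes were above 0 in both cultures. In complex IV the median was 0.034 with 5 of 7 above 0. Against genes of like brightness the members' median was 0.10, with 40 of 45 above.

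The pairing of WT and KpCKO arrays from the same slide and culture gave 6 pairs. KpCKO was the higher array in all 6 pairs for 21 members (46.7%), whereas 11.6% of all genes were so, and the lower in all 6 for Cox5b alone, where 13.4% of all genes were. The shares of all genes take in dim genes and were not matched for level, while the members had mean levels between 1 and 7. The 21 genes were 19 of complex I, Sdhb of complex II and Ndufa4 of complex IV. Ndufa4 was at 4.61, 4.25, 4.66, 4.63, 4.51 and 4.52 on the WT arrays of Con, M1 and M2, and at 4.85, 4.65, 4.78, 4.81, 4.70 and 4.71 on the KpCKO arrays in that order. Ndufa5, an accessory subunit of the matrix arm, was at 4.12, 3.99, 4.12, 3.85, 4.31 and 4.39 in WT and at 4.30, 4.17, 4.38, 4.33, 4.45 and 4.54 in KpCKO. Each KpCKO array thus stood above its WT partner, although the genotypes overlapped across conditions. Over the 3 conditions the differences were 0.22 for Ndufa4 (limma adjusted p = 0.08) and 0.23 for Ndufa5 (adjusted p = 0.0546).

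Cox5b went the other way. Its WT arrays were at 5.58 and 5.40 in Con, 6.16 and 5.97 in M1 and 5.72 and 5.82 in M2. Its KpCKO arrays were at 5.15 and 5.37, 5.50 and 5.81, and 5.32 and 5.71. The gap was wide in culture 1 and narrow in culture 2, and the difference over conditions, -0.30, did not pass (limma adjusted p = 0.08). Macrophage markers also had a lower summed signal in KpCKO than in WT, 443 to 468 against 538 to 596 in M1. Over the 3 conditions, 1 of 4 stromal markers was lower in KpCKO (Dcn, -2.72, limma adjusted p = 0.0131) and 1 of 6 neutrophil markers was higher (Mpo, 1.06, adjusted p = 0.0349). In M1 cells the summed stromal signal was 7.89 to 8.34 in WT and 4.94 to 9.83 in KpCKO, and the neutrophil signal 9.76 to 13.0 and 6.82 to 13.0. The part of cell makeup in the small genotype differences was not tested.

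**Figure D4:**
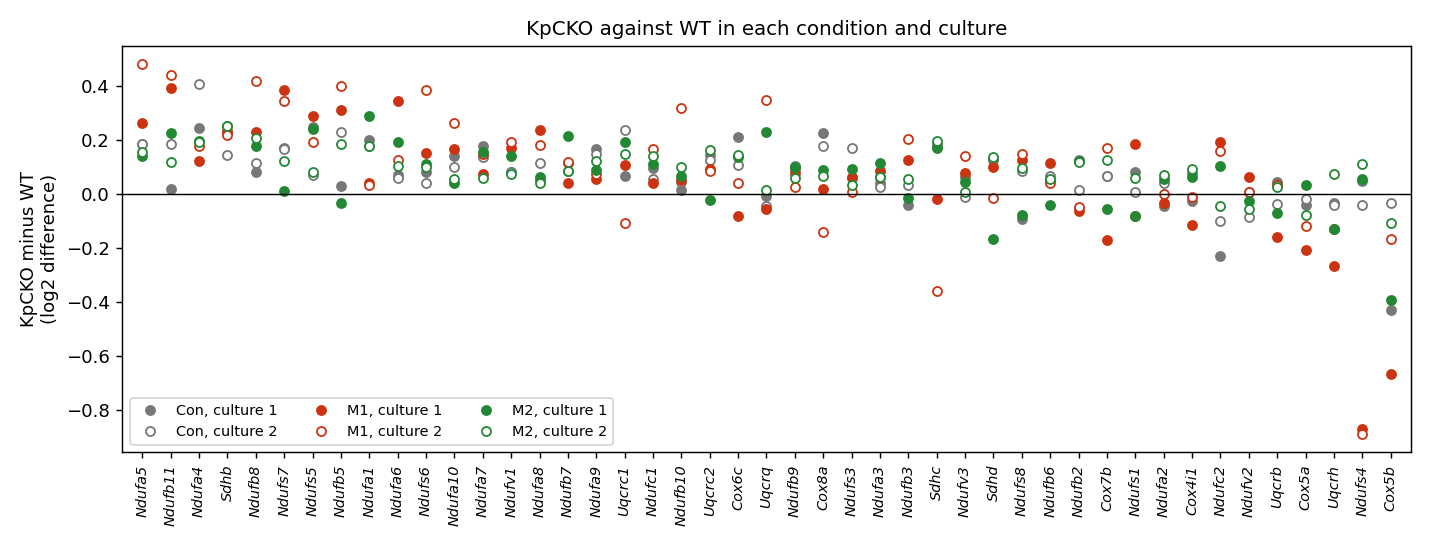
Difference of KpCKO from WT in log2 units for each of the 45 genes, sorted by mean, with 1 point for each of 2 cultures in Con, M1 and M2. The points of a culture come from the same 2 animals. Points lie above 0 in all 6 pairs for 21 genes and below 0 in all 6 for Cox5b, and the M1 points of Ndufs4, at -0.87 and -0.89, stand apart from its Con and M2 points.

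Ndufa1, Ndufb11 and Cox7b lie on the X chromosome, so the male and female cultures were read side by side for them. Ndufa1 was at 5.63 in culture 1 and 5.77 in culture 2 in WT Con, at 6.05 and 6.15 in WT M1 and at 5.31 and 5.66 in WT M2. Its KpCKO arrays were at 5.83 and 5.95, 6.09 and 6.18, and 5.60 and 5.83, so culture 2 was the higher in all 6 pairs. Cox7b was at 3.83 and 3.93 in WT M2, and at 3.91 and 3.84, 4.24 and 4.54, and 3.78 and 4.05 in the KpCKO groups, so with the WT arrays given above culture 2 was the higher in 3 of 6 pairs. Ndufb11 was at 5.53 and 5.70 in WT M2 and at 5.75 and 5.81 in KpCKO M2, with its other arrays above, and neither culture was the higher throughout. Culture and sex cannot be told apart, and no test was made.

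The response to stimulation was then compared between genotypes with an interaction term. For M1, no member passed, where 0.0715% of all genes did (0.0447% higher, 0.0268% lower). An unadjusted p under 0.05 was found for 2 members, beside 3663 of 22368 genes. The rise of Ndufs4 was 0.88 smaller in KpCKO on the log2 scale (SE 0.267, unadjusted p = 0.0133, limma adjusted p = 0.209), with -0.92 in culture 1 and -0.84 in culture 2. Its Con levels were near equal, 3.12 and 3.06 in WT against 3.16 and 3.01 in KpCKO. Ndufc2, a membrane-arm subunit, fell in WT, from 5.09 and 5.06 to 4.75 and 4.74, and was at 4.86 and 4.96 in KpCKO Con and 4.95 and 4.90 in KpCKO M1, and its interaction of 0.34 did not pass (adjusted p = 0.276). For M2, no member passed, where 0.00894% of all genes did, each of them higher. None had an unadjusted p under 0.05, where 451 of 22381 genes did.

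Subunits outside the 45 were read for comparison. Of 15 further subunits of complexes I to IV past the filter, 4 rose and 1 fell under M1 in WT on the percentile scale, and 1 rose and 8 fell after quantile normalization. Uqcrfs1, the Rieske iron-sulfur protein of complex III, rose by 1.22 in WT and 0.80 in KpCKO, and like Ndufs4 stayed above 0 in every scaling (0.45 to 1.26 in WT). Cyc1, cytochrome c1 of complex III, rose under IL-4 in WT by 0.69 (limma adjusted p = 0.0133), the same size as the rise of Uqcrc1, and by 0.51 in KpCKO (adjusted p = 0.0468). Under M1, Cox7a2 (0.78) and Cox7c (0.66) of complex IV rose with the Cox members on the percentile scale.

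Tissue-restricted isoforms of complex IV subunits were dim but moved far. Cox6b2, an isoform best known from testis, was at -2.39 and -2.56 in WT Con and at -0.64 and -0.36 in WT M1. In KpCKO it was at -2.88 and -2.68 in Con and at -1.48 and -1.20 in M1. The rise was 1.98 in WT (SE 0.135) and 1.44 in KpCKO, and in M1 cells KpCKO was lower by 0.84 (limma adjusted p = 0.012), the same direction as Ndufs4. Cox4i2, the isoform that replaces Cox4i1 in lung and under low oxygen, was above background on 11 of 12 arrays, at -6.55 and -6.92 in WT Con, -5.31 and -5.13 in WT M1 and -6.42 and -6.20 in KpCKO M1. In M1 cells it was lower in KpCKO by 1.09 on the log2 scale (adjusted p = 0.0255), and its M1 rise in WT was 1.52 on the percentile scale and 0.20 with normexp. Cox6a2, the heart and muscle isoform, was at -1.89 and -1.61 in WT Con, -0.71 and -0.95 in WT M1 and -0.52 and -0.30 in WT M2, and only its M2 difference in WT passed (1.34, adjusted p = 0.0492). In KpCKO it was at -1.69 and -2.40 in Con, -0.77 and -2.05 in M1 and -0.55 and -0.76 in M2, with the M1 arrays far apart. Of the 5 isoforms past the filter, 2 were called higher under IL-4 in WT and 1 in KpCKO. The shares of all genes called there were 16.8% and 10.2%.

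The remaining isoforms moved little. Cox7a1, another muscle isoform, was between 0.18 and 0.44 in WT and between 0.15 and 0.81 in KpCKO, with a difference of -0.032 under M1 in WT. Cox7a2l, which helps complexes III and IV to associate, was at 4.03 and 4.19 in WT Con and at 3.81 and 3.70 in WT M1, a fall of 0.35 on the log2 scale (limma adjusted p = 0.0314). Cox8b was above background on 1 of 12 arrays, and Cox7b2 and Cox8c on 0 of 12.

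The electron carriers and the ATP synthase flank these complexes. Among 11 genes for cytochrome c and ubiquinone synthesis, 3 rose and 3 fell under M1 in WT. Pdss1, which makes the ubiquinone side chain, rose by 3.12 and Cycs, the cytochrome c of somatic cells, rose by 1.94, while Coq9 (-1.11) and Coq4 (-0.95), both needed for ubiquinone synthesis, fell, with the same signs in every scaling. Among 16 ATP synthase genes 8 rose and 1 fell on the percentile scale, but 0 rose and 11 fell after quantile normalization, the same dependence as in complex IV. Atpif1, an inhibitor of the ATP synthase, fell by 0.40 under M1 in WT and was 0.41 higher in KpCKO over the 3 conditions (limma adjusted p = 0.0041).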

How the data were processed

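The 12 samples were hybridised to one-colour Agilent whole-mouse-genome arrays. The authors scanned them and deposited Feature Extraction 10.7.3.1 output, whose processed signal is a background-subtracted intensity. A second table the authors deposited, of log2 values for the same arrays, matched log2 processed intensity with slopes of 0.999623 to 1.00036 over 40749 probes. It was an alternative here. The authors' genome build for the arrays was mm9, and no coordinate of the arrays is printed. Log2 intensity was set relative to each array's 75th percentile. Of 41174 probes, 26690 were matched to 18217 symbols through RefSeq, and a gene was read from its brightest probe. Genes were kept where the probe was well above background on both arrays of any group, which left 22386 of 32301. Fits used limma 3.58.1 in R 4.3.3, with tables and figures from Python 3.11.15 (pandas 2.3.3, numpy 2.4.6, matplotlib 3.10.9). All 6 groups entered 1 fit with culture as a block, on 5 residual degrees of freedom, and a gene was called at an adjusted p of 0.05. The replicate number marks the culture in the labels, and deviations from the group means correlated at 0.162 to 0.597 over 15 pairs of groups. The script was tested on simulated data. Precision is limited by 2 arrays a group. Each limma p-value rests on the variation left between arrays after the culture block, pooled over the 6 groups. The 3 arrays of an animal entered as separate observations, so these p-values do not measure the spread between animals. Array values are given for the 5 highest and 5 lowest members under M1 in WT, except Ndufb3, and for up to 3 each way in the other comparisons. They are also given for X-linked members and for isoforms above background, some of these in part of the groups only. Other lists name at most 2 genes each way, and further genes were named after their values were seen. The members, gene lists and tests were chosen with earlier results of these data known. Alternatives were other scalings, filters, probe rules and blocks, the methods' t-test and leaving out each array. Mitochondrially encoded subunits were not analysed here.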

Additional observations from a re-analysis of the deposited data

How the results depend on the processing

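The counts of called members under M1 rested on the scaling. No share of all genes called is given for the settings in this section, so its counts cannot be set against one. In WT, 22 members were called on the percentile scale, 37 with quantile normalization, 41 with normexp and quantile normalization and 7 by the methods' t-test after adjustment. In KpCKO, 11 became 23, 35 and 0. Quantile normalization turned Cox5a to -0.19, Cox8a to -0.24, Cox7b to -0.024 and Cox5b to -0.24 in WT and Cox5a to -0.0037 in KpCKO. With normexp these were -0.64, -0.57, -0.088 and -0.22 in WT, and Cox5a (-0.084) and Cox7b (-0.0077) turned in KpCKO. The median of the members less that of all genes was 0.032 in WT M1 and moved to -0.37 (quantile), -0.59 (normexp), -0.30 (no filter on dim probes) and -0.0022 (mean of a gene's probes). In KpCKO M1 it was 0.060 and moved to -0.24, -0.41 and -0.10 for the first 3. The gap of complex IV over complex I, chosen after seeing the data, was 0.66 in WT and 0.39 (quantile), 0.18 (normexp) and 0.48 (less genes of like brightness), and 0.36 in KpCKO and 0.20, 0.16 and 0.27. The cause was not tested.

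For KpCKO against WT in M1, 2 members were called, with 6 under quantile normalization, 13 with normexp, 1 without the filter and 4 with a filter on all 12 arrays. Over the 3 conditions 1 was called, with 5, 7, 0 and 5 in the same order and 5 with mouse as a random block. Under M2 the filter on all arrays raised 3 to 6 in WT and 1 to 2 in KpCKO. The median less that of all genes moved to 0.049 with normexp in Con, and without the filter to 0.31 in M1, 0.10 in M2 and 0.15 over conditions. The methods' t-test after adjustment called 0 for M2 in both genotypes, for KpCKO in M1 and over conditions. At its unadjusted threshold it called 8 for M2 in WT, 5 for M2 in KpCKO, 5 for KpCKO in Con, 8 in M1, 5 in M2 and 3 over conditions.

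Without the replicate block of culture, 5 members were called for M1 in KpCKO, 1 for M2 in WT and 0 for M2 in KpCKO, for KpCKO in M1 and over the 3 conditions, and 16 for M1 in WT.

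Leaving out 1 array at a time gave 11 to 18 called for M1 in WT, the fewest without the second WT Con array, 3 to 6 for M1 in KpCKO, 0 to 1 for M2 in WT, 0 to 0 for M2 in KpCKO, 0 to 2 for KpCKO in M1 and 0 to 2 over conditions. The median less that of all genes was then -0.040 to 0.078, 0.023 to 0.13, 0.12 to 0.22, 0.083 to 0.23, 0.11 to 0.22 and 0.076 to 0.14 in that order, 0.013 to 0.15 for KpCKO in Con and -0.0064 to 0.15 in M2. For the differences in response it was 0.0090 to 0.15 (M1) and -0.091 to 0.054 (M2). The gap of complex IV over complex I was 0.57 to 0.69 in WT and 0.29 to 0.33 in KpCKO. A lone array was assumed to vary like the other groups. The arrays hold no depth, and their number limits precision.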

Other observations

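Genes that build and regulate the respiratory chain were read under M1 in WT, where 63.2% of all genes passed. Of 37 assembly factors past the filter, 7 rose and 14 fell (8 and 21 with quantile normalization). Sco1, which delivers copper to complex IV, rose by 3.30 and Coa5, another complex IV assembly factor, by 2.39. Ndufaf7, a methyltransferase that acts on complex I, fell by 1.83 on the log2 scale, and Coa6, a further copper protein of complex IV assembly, fell by 1.74. Cox17, the copper chaperone, was lower in KpCKO M1 cells by 0.63 on the log2 scale (limma adjusted p = 0.012).

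Of 14 regulators of mitochondrial biogenesis, 5 rose and 3 fell under M1 in WT, and 5 rose and 0 fell under IL-4. Ppargc1b, the PGC-1β coactivator, rose by 3.23 under M1 and by 3.11 under IL-4 in WT, and by 2.75 under IL-4 in KpCKO. Esrra, the nuclear receptor it partners, rose by 1.92 under M1 and by 0.91 under IL-4 in WT. Twnk, the mitochondrial DNA helicase, fell by 1.66 on the log2 scale and Polrmt, the mitochondrial RNA polymerase, fell by 0.72. Nrf1, a regulator of respiratory genes, was lower in KpCKO M1 cells by 0.49 on the log2 scale (limma adjusted p = 0.0166). Of 78 mitochondrial ribosome genes, 15 rose and 30 fell under M1 in WT (9 and 48 with quantile normalization). Counted both ways together, that share was below that of all genes. The rises were a smaller share than the 34.5% of all genes called higher, and the falls a larger share than the 28.6% called lower. Their median was -0.18, beside 0.13 over all genes. Under IL-4 in WT 12 rose and 1 fell, where 16.8% of all genes passed.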
